A study of Mus musculus with 11 samples.

Results

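Gene expression in the pancreas of untreated mice aged 18 months, called aged here, was compared with that of untreated mice aged 7 weeks, called young, across all genes. The comparison used 5 of the 11 libraries of the series, chosen by their labels: young mice 1, 2 and 3 and aged mice 2 and 3, each library being bulk messenger RNA from the whole organ of 1 mouse. All were C57BL/6JRj, an inbred laboratory strain, bought from a breeder and fed chow. The labels give these mice no treatment, no vehicle injection and no named allele, although the mice were genotyped at weaning, and they do not state the sex. The 6 other libraries, 3 per age, came from mice of the same strain and ages given caerulein, a cholecystokinin analogue that overstimulates acinar cells, in 4 hourly intraperitoneal injections of 125 µg/kg, and are labelled 5H. They served here to estimate the spread between libraries and to give a separate measurement of each age difference. The study's aim was the effect of aging on the onset of pancreatitis, and the untreated comparison measures what already differed without injury.

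The bulk of the pancreas is made of acinar cells, which secrete digestive enzymes and so carry a transcriptome dominated by enzyme messages. Reg proteins are small secreted lectin-like proteins that acinar cells make in amounts that vary with diet, inflammation and injury. Ducts, islets of Langerhans, stellate cells, vessels, resident macrophages and a sparse population of lymphocytes and plasma cells make up the rest of the organ, and peripancreatic fat and lymph nodes lie against it.

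Total counts were 23629858, 22125158 and 23384357 in young mice 1, 2 and 3 and 14916880 and 26537091 in aged mice 2 and 3. Digestive enzymes took 75.5%, 70.2% and 75.4% of the counts in young mice and 73.6% and 76.4% in aged mice (exact 2-sided permutation test, p = 0.8, where 0.1 is the smallest the design allows), so the labelled tissue matches its defining transcripts in all 5. The Y-linked Ddx3y had between 231 and 487 counts in each library and Xist at most 3. Young mouse 2 stood apart. Its log2 CPM correlated with those of the other young mice at r = 0.902 across genes, against 0.987 between young mice 1 and 3. The summed level of 14 B cell markers was 290 CPM (library counts scaled to a common total) in that library and 0.470 to 1.27 in the other 4. For 30 T cell and NK cell markers the sums were 312 against 2.78 to 5.58, and for 16 adipocyte markers 767 against 30.4 to 66.8. Of those lists, the B cell genes Pax5, Spib and Fcer2a and the T cell and NK cell genes Cd3e, Lef1, Ctla4, Klrb1c, Gzmk and Gzmb were at 0 in the other 4 libraries. Counts of called genes and list medians are therefore given with and without young mouse 2, which leaves 2 mice against 2. Fold changes of the genes called with all libraries and of their neighbours are from that fit, and those of other single genes from the fit without young mouse 2, unless stated.

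**Figure D1:**
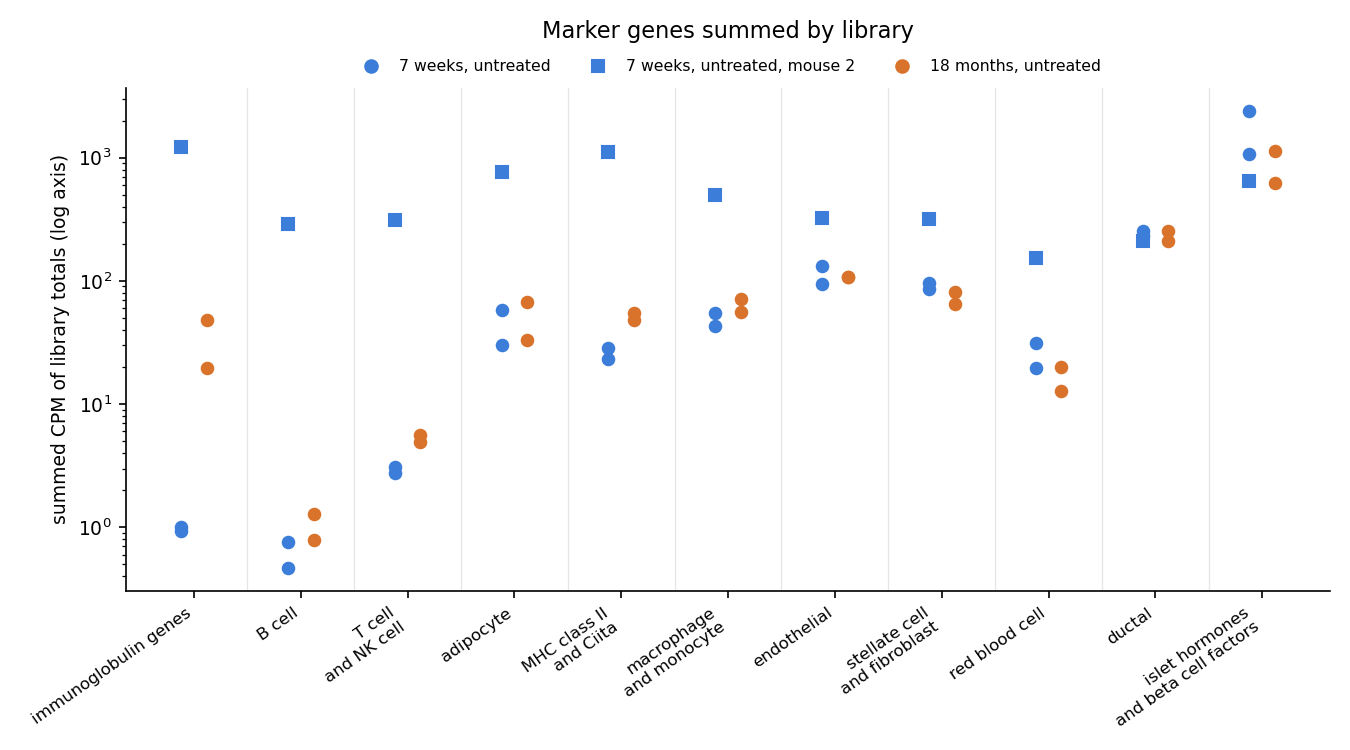
Summed level of each marker list (CPM of the library total, log axis) in the 5 untreated libraries, 1 point per mouse. Young mouse 2 (square) lies at 1220 CPM for immunoglobulin genes and 290 CPM for B cell markers, apart from the other 4 mice, while its islet and ductal sums, 651 and 210 CPM, lie within their range or at its edge.

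With all libraries, 13 of 14113 genes tested passed an adjusted p of 0.05 in edgeR's quasi-likelihood fit (0.0921%), of which 8 rose and 5 fell with age (0.0567% and 0.0354%). Without young mouse 2, 55 of 13567 passed (0.405%), 35 higher and 20 lower (0.258% and 0.147%). Every one of the 13 was called again in the same direction. At an unadjusted p below 0.05, 9.35% of genes passed with all libraries, 533 higher and 787 lower (3.78% and 5.58%), and 8.32% without young mouse 2, 585 and 544 (4.31% and 4.01%). The median log2 fold change of all genes was -0.03 with all libraries and -0.00 without young mouse 2. These shares and medians are the background for the list counts below. Scaled by library totals alone, which moved the median of all genes from -0.03 to -0.27 (log2), 3 genes rose and 0 fell; with young mouse 2 also left out the split was 20 higher and 11 lower. Leaving out aged mouse 2 or aged mouse 3 left 2 genes called in either case, 1810007D17Rik and Cobl, with 1 aged library then assumed to vary like the other groups.

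**Figure D2:**
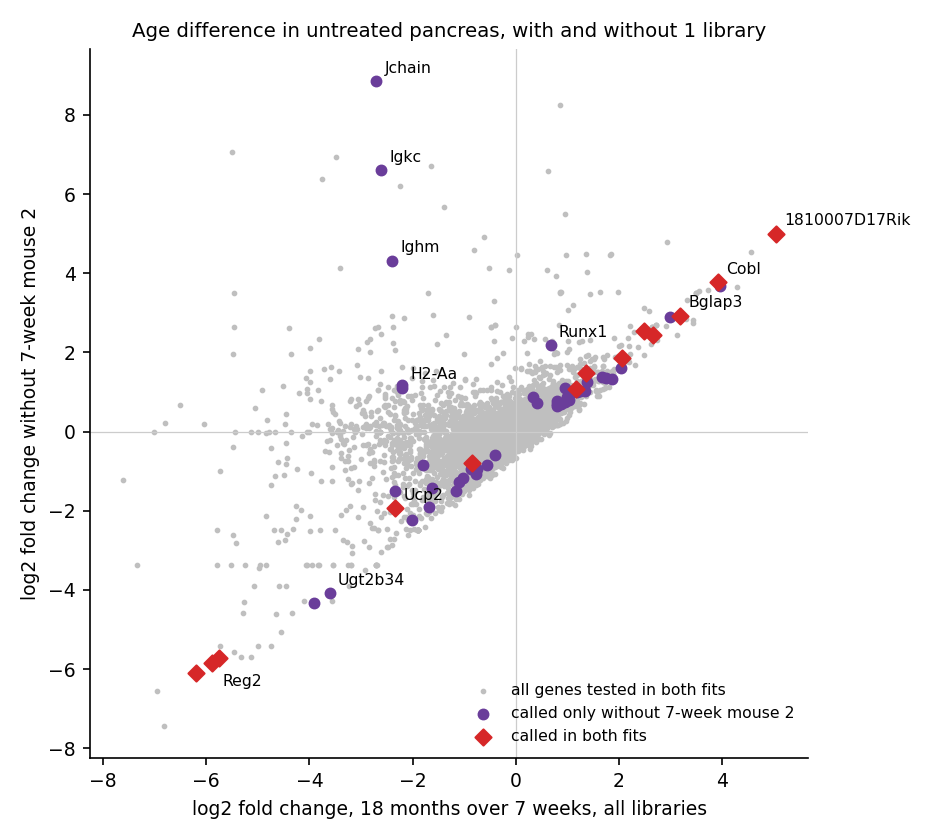
Log2 fold change of each gene, aged over young, with all libraries (x axis) and without young mouse 2 (y axis), for genes tested in both fits. The 13 genes called in both (diamonds) have similar values on both axes, whereas Jchain, Igkc, Ighm and H2-Aa lie in the upper left, at negative values with that mouse and positive values without it.

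Among the 13 genes called with all libraries, the largest decreases with age were in 3 members of the Reg family, Reg3a, Reg2 and Reg3b, which lie in one cluster on chromosome 6 and encode secreted C-type lectins, Reg3b being antibacterial. Reg3b had 513, 1392 and 2016 TMM-scaled CPM (CPM of a library total adjusted for composition) in young mice 1, 2 and 3 and 32.9 and 15.8 in aged mice 2 and 3. Reg2 had 3335, 6480.0 and 8324 in young and 152 and 52.4 in aged mice, and Reg3a had 108, 319 and 376 against 4.71 and 2.71. The young libraries differed widely among themselves, young mouse 1 being the lowest for each gene, yet every young value was above every aged one. The log2 fold change was -5.76 ± 0.76 for Reg3b (SE; adjusted p = 0.021), -5.89 ± 0.83 for Reg2 (0.0273) and -6.20 ± 0.84 for Reg3a (0.0219). Without young mouse 2 the values were -5.73, -5.85 and -6.09, so the decrease did not rest on the library that stands apart. Below, levels joined by "against" are given for the young mice first and then for the aged. In these bulk libraries fewer cells expressing a gene and less RNA per cell cannot be told apart.

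Sequences upstream of the start sites are shown for the 3 genes that fell and for their neighbour Reg1, whose change was not called, so that the promoters of the cluster can be compared. Each line holds the 250 bases before the RefSeq start on GRCm38.p6, 5′ to 3′ on the plus strand, with 2 motifs in capitals: TATAAA, the box at which the core transcription machinery can assemble, and TTCNNNGAA, the core that STAT factors bind. The windows are chr6:78370635-78370884 for Reg3b, chr6:78380459-78380708 for Reg3a, chr6:78404905-78405154 for Reg2 and chr6:78425733-78425982 for Reg1.
Reg3b: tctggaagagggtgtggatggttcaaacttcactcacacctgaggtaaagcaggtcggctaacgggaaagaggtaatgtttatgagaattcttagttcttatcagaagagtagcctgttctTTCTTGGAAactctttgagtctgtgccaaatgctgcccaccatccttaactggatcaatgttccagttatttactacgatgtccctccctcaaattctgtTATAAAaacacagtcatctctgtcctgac
Reg3a: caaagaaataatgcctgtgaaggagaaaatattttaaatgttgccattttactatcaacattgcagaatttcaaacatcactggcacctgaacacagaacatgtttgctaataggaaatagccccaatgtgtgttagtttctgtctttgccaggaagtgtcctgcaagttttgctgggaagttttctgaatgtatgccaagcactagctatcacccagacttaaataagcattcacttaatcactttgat
Reg2: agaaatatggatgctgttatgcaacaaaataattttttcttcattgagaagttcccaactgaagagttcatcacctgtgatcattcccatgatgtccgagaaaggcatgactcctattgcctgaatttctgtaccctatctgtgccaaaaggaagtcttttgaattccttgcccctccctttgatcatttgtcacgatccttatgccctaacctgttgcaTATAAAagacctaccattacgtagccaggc
Reg1: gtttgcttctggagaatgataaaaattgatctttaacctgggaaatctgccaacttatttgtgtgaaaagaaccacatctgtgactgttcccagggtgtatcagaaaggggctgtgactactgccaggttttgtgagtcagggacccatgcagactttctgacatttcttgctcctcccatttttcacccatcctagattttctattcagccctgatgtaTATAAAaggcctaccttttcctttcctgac
TATAAA begins 29 bases before the start in Reg3b and 30 bases before it in both Reg2 and Reg1, and is not in the Reg3a window. TTCNNNGAA is in the Reg3b window alone of these 4, 129 bases before the start. Of the cluster genes not shown, Reg3d also has TTCNNNGAA, 238 bases before its start, and no TATAAA. Reg3g has TATAAA 161 and 27 bases before its start and no TTCNNNGAA. On either strand TATAAA is in 12.4% and TTCNNNGAA in 7.02% of 32851 RefSeq promoters of the same length. The motifs therefore do not sort the 3 genes that fell from Reg1, and a match is a description of letters, not of binding.

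The cluster did not move as a block. Reg1, the most abundant member per kilobase of gene length in each of the 5 libraries, had 19121, 7432 and 15642 CPM in young and 13425 and 10001 in aged mice, overlapping ranges with a log2 fold change of -0.26 ± 0.33 (adjusted p = 0.817; -0.58, 0.35 without young mouse 2). Reg3d, between Reg3b and Reg3a and on the opposite strand, had 442, 339.7 and 508 CPM in young and 249 and 175 in aged mice without overlap. It was called only without young mouse 2 (-1.18 ± 0.16, adjusted p = 0.00519), and that call was lost when young mouse 3 or aged mouse 3 was left out too. Reg3g, the partner of Reg3b in gut defence, had 13.2, 114 and 74.7 CPM in young and 6.39 and 2.6 in aged mice and was not called (-3.95 ± 0.86, 0.227; -3.37 and 0.0732 without young mouse 2). Reg4 had no counts in any of the 5. The calls of Reg3b, Reg2 and Reg3a with all libraries held in 15, 11 and 14 of 20 alternatives. All 3 were lost with library totals, with the 5 untreated libraries alone, with the mouse number as a block or when either aged mouse was left out, that of Reg3a also without aged caerulein mouse 1, and that of Reg2 also without young mouse 3, young caerulein mouse 1 or 2 or aged caerulein mouse 1. The log2 fold changes were -5.30 or below in each of the 20. Without young mouse 2 each was called in 8 of 9 alternatives and lost without aged mouse 3. The Reg3 genes are close paralogs, and reads they share are divided as the authors' counting left them. The positions are chromosome 6, 78370657 to 78373466 for Reg3b, 78375874 to 78378865 for Reg3d, 78380709 to 78383827 for Reg3a, 78395623 to 78408106 for Reg2, 78422711 to 78428667 for Reg1 and 78466269 to 78468872 for Reg3g (mm10).

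**Figure D3:**
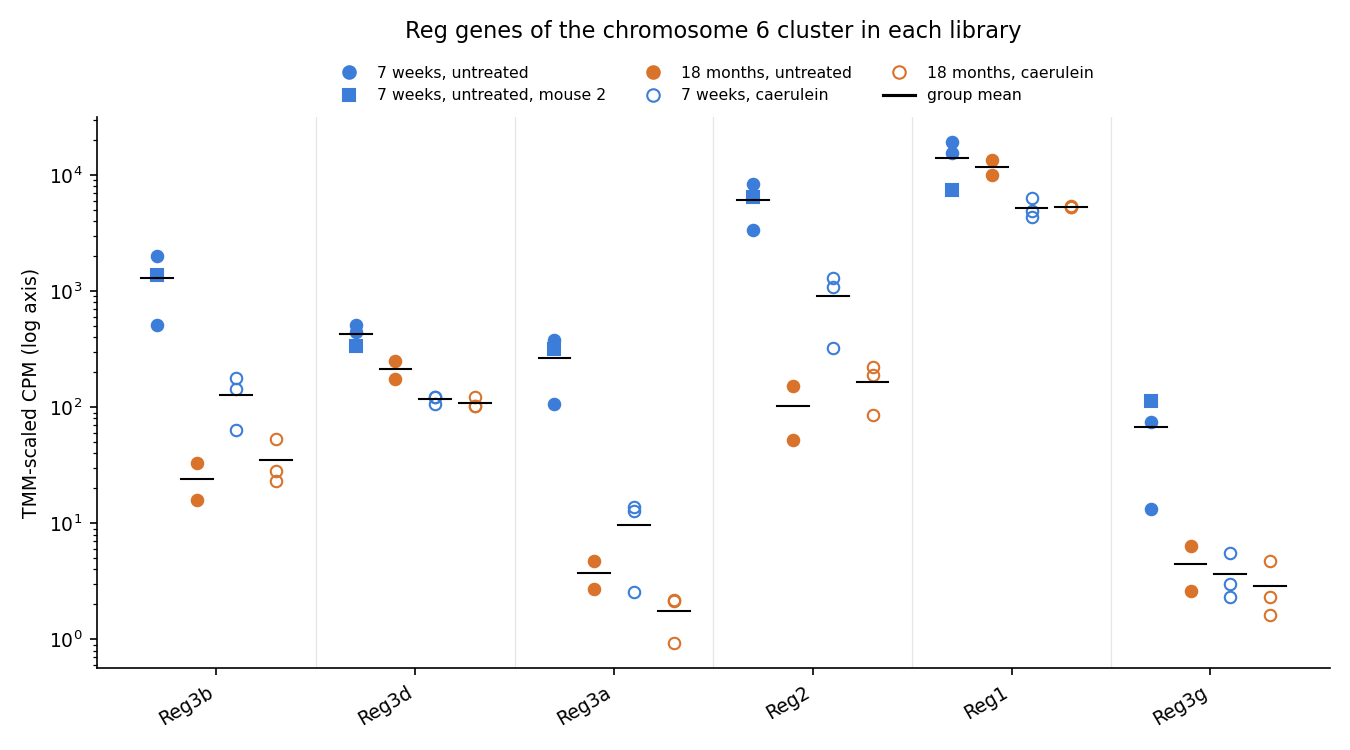
TMM-scaled CPM (log axis) of the 6 Reg genes of the cluster in each library, untreated (filled) and after caerulein (open), with the group mean as a bar. In Reg3b, Reg3a and Reg2 every untreated aged mouse lies below every untreated young one, while the Reg1 values of the groups overlap.

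Among the 8 genes called higher with all libraries, the largest change was in 1810007D17Rik (ENSMUSG00000100001, a long intergenic noncoding RNA on chromosome 19, 58606329 to 58629753), which the naming rule leaves out for its provisional name and which is given after its values were seen. It had 3.77, 3.32 and 3.22 CPM in young and 124 and 102 in aged mice, a log2 fold change of 5.04 ± 0.16 (adjusted p = 6.06e-08). The young values lay close together, far below both aged ones, and the call held in each of the 20 alternatives run. The acinar lipase gene Pnlip, 40612 bases away, was at -0.04 (adjusted p = 0.977). Gfra1, 150420 bases away on the other side, moved the opposite way and is described below. Of the 6 tested genes within 200000 bases, Gfra1 was the only one called, and only without young mouse 2.

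Cobl, an actin nucleator of cell protrusions (chromosome 11, 12236608 to 12464960), rose from 3.04, 2.28 and 2.88 CPM in the 3 young mice to 46.1 and 35.9 in the 2 aged mice (3.91 ± 0.17, adjusted p = 9.01e-07), also in each of 20 alternatives. Bglap3, a relative of osteocalcin (chromosome 3, 88368616 to 88372743), had 2.92, 1.28 and 1.61 CPM in young and 16 and 18.8 in aged mice (3.19 ± 0.36, 0.0108). Its near-identical neighbours Bglap and Bglap2 had at most 1 count in any of the 5 libraries. How the counting divided reads shared between them and Bglap3 is not known here. Both genes were several times higher in every aged library than in any young one.

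The X-linked neuronal gene Nexmif had 1.01, 0.959 and 0.691 CPM in young and 5.13 and 4.93 in aged mice (2.49 ± 0.30, 0.0151). Bdh2, a cytosolic short-chain dehydrogenase, had 1.18, 0.639 and 0.921 against 6.64 and 4.93 CPM (2.66 ± 0.36, 0.021). Serpine2, a secreted inhibitor of thrombin and trypsin-like proteases, had 4.16, 2.72 and 4.6 against 13.7 and 18.1 CPM (2.07 ± 0.27, 0.021). These 3 genes were low in the pancreas at both ages but did not overlap between them. Rdh11, a retinal reductase, had 4.33, 4.96 and 3.34 CPM in young and 11.2 and 10.6 in aged mice (1.36 ± 0.18, 0.021). The smallest increase was in Fxyd1, phospholemman, a regulator of the sodium pump, with 12, 10.7 and 13.3 against 28.6 and 25.4 CPM (1.17 ± 0.18, 0.0484), and its call was lost under 15 of 20 alternatives.

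**Figure D4:**
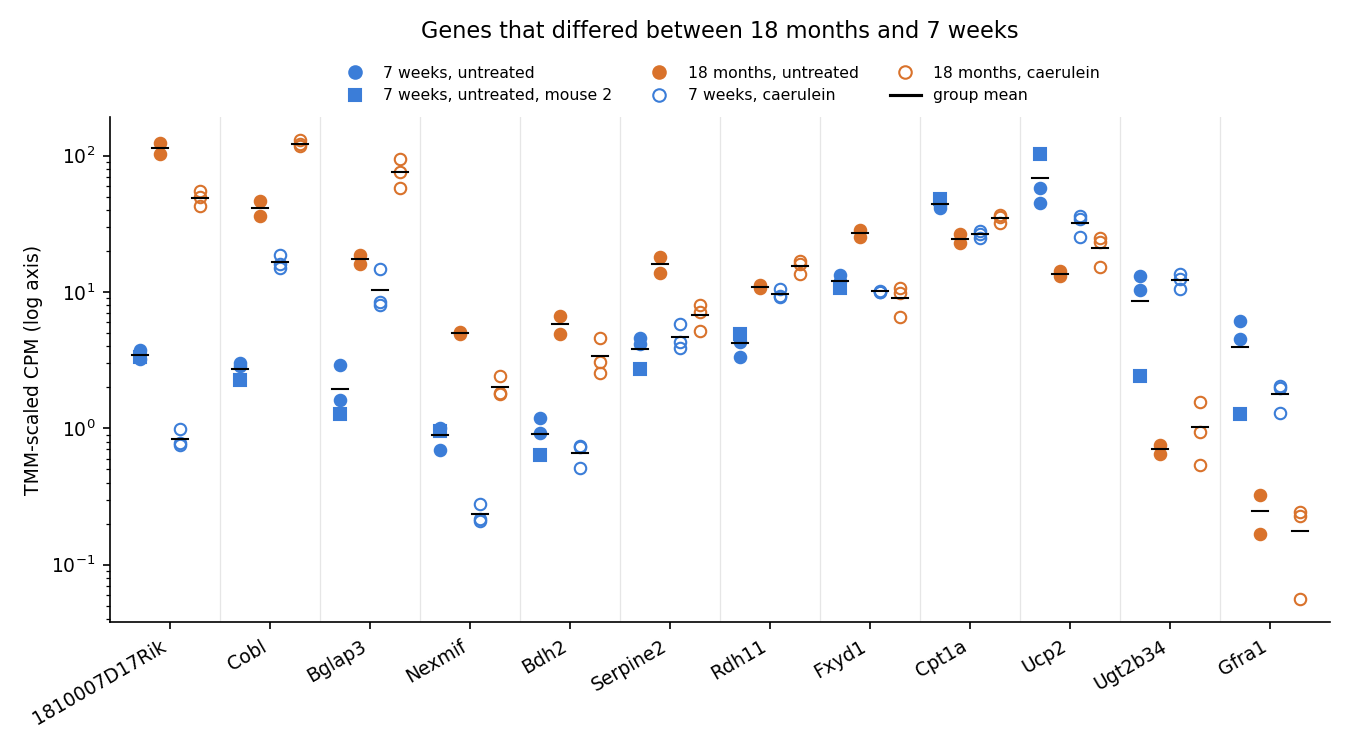
TMM-scaled CPM (log axis) of 12 genes called with or without young mouse 2, in each untreated (filled) and caerulein (open) library, with group means as bars. The 2 aged untreated mice lie above the 3 young ones in the first 8 genes, from 1810007D17Rik to Fxyd1, and below them in Cpt1a, Ucp2, Ugt2b34 and Gfra1.

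Of the 5 genes that fell, 2 are in the list of fatty acid oxidation genes. Ucp2, a carrier of the inner mitochondrial membrane, had 44.6, 104 and 58.3 CPM in young and 14.2 and 13.1 in aged mice (-2.34 ± 0.36, adjusted p = 0.048; -1.93 ± 0.23 and 0.00223 without young mouse 2, the highest library). Cpt1a, which loads long-chain fatty acids for import into mitochondria, had 43.2, 48.2 and 41.1 against 26.5 and 22.7 CPM (-0.85 ± 0.13, 0.048). Both are close to the threshold with all libraries, where Ucp2 kept its call in 7 and Cpt1a in 5 of 20 alternatives. In that list, which was written with earlier results of these data known, 2 of 27 tested members fell and 0 rose with and without young mouse 2. Over all genes 0.0354% were called lower with all libraries and 0.147% without young mouse 2. At an unadjusted p below 0.05 without that mouse, 6 were lower and 1 higher, where 4.01% of all genes were lower and 4.31% higher. The median was -0.33 against -0.00 for all genes. With all libraries 10 were lower and 1 higher, where 5.58% and 3.78% of all genes were, with a median of -0.43. Pdk4, a kinase that spares glucose, had 1.24, 4.44 and 2.01 CPM in young and 0.672 and 0.217 in aged mice (-2.02, 0.243), and Hadh of the oxidation cycle 54.8, 34.7 and 49.3 against 42.2 and 37.3 (-0.40, 0.289).

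In the lists of fatty acid and cholesterol synthesis genes, 2 members rose without young mouse 2 and 0 fell, while with all libraries 0 were called. Srebf1, the transcription factor that drives fatty acid synthesis, had 35.2, 31.5 and 27.9 CPM in young and 60.2 and 49.2 in aged mice and was called higher in that fit (0.78 ± 0.15, adjusted p = 0.04). Of 17 fatty acid synthesis genes 1 rose, 0 fell and 16 did not pass. At an unadjusted p below 0.05, 5 were higher and 1 lower, where 4.31% of all genes were higher and 4.01% lower. Of the 17, 13 had a positive fold change and the median was 0.40. With all libraries 3 were higher and 2 lower, 5 had a positive fold change and the median was -0.30, so the direction of the list turned with young mouse 2. The desaturases Scd2 (74.1, 34.5 and 64.8 CPM in young, 116 and 149 in aged) and Fads1 (25.2, 12.8 and 19.7 against 32.1 and 43.9) did not pass (0.92 and 0.75, adjusted p = 0.143 and 0.169), and the desaturase Fads2 lay on the lower side, at -0.81 (0.35). Of 21 cholesterol synthesis genes, Insig1, a brake on that pathway, was the 1 called (50.6, 35.7 and 52.1 CPM in young, 71.7 and 89.2 in aged; 0.64 ± 0.12, 0.0425). At the unadjusted threshold 9 were higher and 0 lower (6 and 0 with library totals), against the same shares of all genes, with a median of 0.37. With all libraries 6 were higher and 0 lower, with a median of 0.17. Sqle of the sterol pathway was at 0.53 and not called (adjusted p = 0.436). The calls of Srebf1 and Insig1 were lost with library totals and without young mouse 1, young mouse 3 or aged mouse 3. The adipocyte marker sums of 58.4 and 30.4 CPM in young mice 1 and 3 against 66.8 and 33.3 in aged mice overlapped.

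Without young mouse 2, another 42 genes were called, 27 higher and 15 lower. Ugt2b34, a glucuronosyltransferase of xenobiotic clearance (chromosome 5, 86889767 to 86906937), fell from 10.3 and 13.1 CPM in young mice 1 and 3 to 0.756 and 0.65 in aged mice (-4.08 ± 0.36, adjusted p = 1.39e-04), with 2.44 in young mouse 2. Gfra1, the co-receptor for the neurotrophic factor GDNF (chromosome 19, 58235604 to 58455909), fell from 4.5 and 6.16 to 0.168 and 0.325 (-4.34 ± 0.50, 0.00223), with 1.28 in young mouse 2. In both genes young mouse 2 lay between the ages and above both aged mice, and both calls held in each of 9 alternatives run without it. Mfge8, which bridges phagocytes to dying cells, was at 24.8 and 25.3 against 12.5 and 15.3 CPM (-0.85 ± 0.12, 0.00543), with 95.8 in young mouse 2. Tyro3, a receptor kinase that also takes part in the clearance of dying cells, was at 13.2 and 11.2 against 6.64 and 5.09 (-1.08 ± 0.17, 0.014), with 5.84 in young mouse 2, inside the aged range. The transmembrane channel-like gene Tmc5 was at 7.59 and 7.14 against 2.35 and 1.68 CPM (-1.92 ± 0.31, 0.014). Each of those 3 calls was lost when young mouse 3 was also left out, and over 9 alternatives the highest adjusted p was 0.076, 0.348 and 0.36 for Mfge8, Tyro3 and Tmc5.

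Genes called higher only without young mouse 2 included some of high level. Syncollin (Sycn), a zymogen granule protein of acinar cells, had 10472, 8287 and 10950.4 CPM in young and 18346 and 21326 in aged mice without overlap (0.88 ± 0.14, adjusted p = 0.014). Gnmt, glycine N-methyltransferase, had 56.5, 37.4 and 69.6 against 107 and 115 CPM (0.81 ± 0.12, 0.0101). The calcium-dependent kinase Camk2b had 66.3, 36.1 and 56.6 against 130.4 and 122 (1.03 ± 0.16, 0.0101), and Azgp1, a secreted glycoprotein linked to fat breakdown, 3.82, 1.2 and 4.09 against 12.8 and 11.6 (1.61 ± 0.24, 0.00932). In all 4 genes young mouse 2 was the lowest of the 5 libraries, so it lay on the same side as the other young mice. All 4 calls were lost without young mouse 1 or without aged mouse 3. Fgf21, a hormone that acinar cells release, had 20.1 and 22.9 CPM in young mice 1 and 3 and 52.3 and 58.6 in aged mice (1.36 ± 0.25, 0.0402).

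Gnmt and Tmc5 above, and the called genes that follow, fall outside the naming rule and were chosen after their values were seen. The galanin receptor Galr1 had 0.843, 0.32 and 0.345 CPM in young and 8.99 and 6.55 in aged mice (3.68 ± 0.57, adjusted p = 0.0117). Clec11a, a secreted growth factor for blood and bone cells, had 2.08, 1.56 and 1.55 against 18.5 and 9.04 (2.89 ± 0.52, 0.0327). Runx1, a transcription factor of blood lineages that epithelia also use, had 0.787 and 0.863 CPM in young mice 1 and 3, 5.24 in young mouse 2 and 3.78 and 3.85 in aged mice (2.19 ± 0.34, 0.0113). Runx1 is thus one of the genes whose level in young mouse 2 exceeded the aged level. The 11 other higher genes lay between 0.68 (Rpl21) and 1.38 (Zfp13), the rest being Fpgs, Srsf3, Nck2, Tuba4a, Shank1, Gm13381, Slco3a1, Sdr9c7 and Slc6a15. The 6 other lower genes, Casc4, Smim24, Jak3, Nrp2, B4galt2 and Txnip, lay between -2.22 (Casc4) and -0.95 (Txnip). Gm13381 is an antisense gene, and because the strand setting of the counting is unknown here, its reads cannot be told apart from those of its partner. When 1 further library was left out, between 9 (without aged mouse 3) and 22 (without aged mouse 2) of the 55 genes were still called, with 14 without young mouse 1 and 11 without young mouse 3, and all 55 kept their sign.

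Immunoglobulin transcripts were higher in both aged mice than in young mice 1 and 3. Their summed level was 1.02 and 0.941 CPM in young mice 1 and 3, 19.6 and 47.9 in aged mice 2 and 3, and 1220 in young mouse 2. Of 218 variable segments, 2 and 1 had a count in young mice 1 and 3, 19 and 47 in the aged mice and 173 in young mouse 2. Jchain, which joins secreted IgM and IgA, had 0 counts in young mice 1 and 3 and 91 over both aged mice, at least 35.1-fold higher against a floor of 3 counts over the young group (adjusted p = 0.00294 without young mouse 2). The kappa constant gene Igkc had 0.0562 and 0.23 CPM in those young mice and 5.29 and 23.1 in aged mice (6.61 ± 0.85, 0.00321), and the mu heavy chain gene Ighm 1.07 and 0.863 against 10.6 and 27.8 (4.32 ± 0.62, 0.00695). With young mouse 2 included, none of these 3 genes was called and their log2 fold changes were -2.71, -2.61 and -2.40. The Jchain call held in each of 9 alternatives without young mouse 2. Those of Igkc and Ighm were lost without young mouse 1 or young mouse 3, and that of Ighm also without aged mouse 3. The direction therefore depends on young mouse 2, whose B cell markers were at 290 CPM. In the 4 other libraries the B cell sum was 0.762 and 0.470 CPM in young and 1.27 and 0.791 in aged mice. Immunoglobulin segments resemble each other, and how the counting divided shared reads is not known here.

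Of the genes of MHC class II, which presents peptides to helper T cells, 2 rose without young mouse 2. H2-Aa had 5.73 and 5.12 CPM in those young mice and 9.83 and 13.5 in aged mice (1.11 ± 0.21, adjusted p = 0.0425), and H2-Eb1 5.68 and 4.95 against 9.91 and 14.1 (1.18 ± 0.22, 0.0402). The invariant chain Cd74 had 17.7 and 13.6 against 28.7 and 34.2 CPM and missed the threshold (1.00 ± 0.21, 0.0691). Of 7 tested list members 5 did not pass, 7 had a positive fold change, and the median was 1.00. In young mouse 2, H2-Aa was at 151 CPM and Cd74 at 435, and with it the list median was -2.25. The H2-Aa and H2-Eb1 calls were each lost without young mouse 1, young mouse 3 or aged mouse 3, and with library totals. Macrophage and monocyte markers, all 28 of which had a read in some untreated library, summed to 42.7 and 54.5 CPM in young mice 1 and 3 and to 71.9 and 55.8 in aged mice. Of 24 tested without young mouse 2, 0 were called, 22 had a positive fold change and the median was 0.54. With all libraries 0 of 26 were called, 6 had a positive fold change and the median was -0.76, so here too the direction turned with that mouse. How far such cells contribute to the MHC class II values was not tested.

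Digestive enzymes, the main product of the organ, showed no called difference. Of 18 acinar proteases and inhibitors and 14 lipases, amylases and ribonuclease genes, 0 were called in either fit, and the medians were 0.23 and 0.45 with all libraries and 0.04 and 0.17 without young mouse 2. At an unadjusted p below 0.05 without young mouse 2, 2 of the 18 were higher and 4 lower. Of the 14, 2 were higher and 0 lower, where 4.31% of all genes were higher and 4.01% lower. With all libraries the counts were 1 and 1 of the 18 and 2 and 0 of the 14. The elastase Cela1 had 78829, 47111 and 83565 CPM in young and 79294 and 95072 in aged mice, the trypsinogen Prss2 50922, 32936 and 52636 against 52079 and 62215, and the carboxypeptidase Cpa1 64125, 38506 and 61509 against 72682 and 82502 (0.29, adjusted p = 0.56 without young mouse 2). Young mouse 2 was the lowest library for all 3. The trypsin inhibitor Spink1 was at 0.09 ± 0.15 and the cholecystokinin receptor Cckar at -0.06 ± 0.18 (adjusted p = 0.934 and 0.971; Cckar at 0.29 with all libraries). Acinar transcription factors had 0 calls, of 15 tested with all libraries (median 0.13) and of 14 without young mouse 2 (median -0.03), and Ptf1a, the master factor of acinar identity, was at 15.6, 6.75 and 17.4 CPM in young and 13.4 and 11.4 in aged mice (-0.42 ± 0.20, 0.609). Of 17 tested ductal genes 0 were called in either fit (medians of 0.23 with all libraries and 0.09 without young mouse 2), with Krt19, the ductal keratin, at 16, 3.96 and 12.5 against 9.49 and 7.75 CPM (-0.75 ± 0.19, 0.217).

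Islet genes varied widely between mice of the same age. Insulin 2 (Ins2) had 1505, 114 and 542 CPM in young and 181 and 653 in aged mice, and the islet transcription factor Nkx2-2 3.04, 1.48 and 3.16 against 0.924 and 1.25, with adjusted p = 0.808 and 0.299 without young mouse 2. Of 35 tested islet genes 0 were called in either fit. In the fit without young mouse 2, 1 had a positive fold change and the median was -1.20, and with all libraries 4 did and it was -0.78. The list's summed level was 2385 and 1078 CPM in young mice 1 and 3 and 624 and 1126 in aged mice, so the aged mice lay below young mouse 1 and 1 of them lay above young mouse 3. How many islets each piece of tissue held was not measured.

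No gene of the matrix list passed the test in either fit. Of 40 collagen and matrix genes, 0 were called, and at an unadjusted p below 0.05 without young mouse 2, 8 were lower and 1 higher (5 and 1 with library totals), with a median of -0.44. Over all genes 4.01% were lower and 4.31% higher in that fit. With all libraries 0 were called, 11 were lower and 0 higher at that threshold (5.58% and 3.78% of all genes), and the median was -0.49. Sparc, a collagen-binding matrix protein, had 50.0 and 46.8 CPM in young mice 1 and 3 and 30.8 and 26.2 in aged mice (-0.78 ± 0.18, adjusted p = 0.116). The basement membrane collagen Col4a1 had 45.8 and 40.9 against 32.3 and 29.2 (-0.51 ± 0.12, 0.186), and the fibrillar collagen Col3a1 59 and 78.4 against 46.4 and 26.1 (-0.95 ± 0.31, 0.396). For each of the 3 both aged mice lay below young mice 1 and 3, and none of the 3 was called. List members were mostly named for a small p, which favours such separation, and the share of all genes so separated is not given here. Stellate cell and fibroblast markers summed to 96.5 and 85.5 CPM in young mice 1 and 3 and to 81.8 and 64.9 in aged mice, and endothelial markers to 131 and 94.6 against 108 in both aged mice.

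Proliferation genes gave mixed values. Mki67, a marker of dividing cells, had 2.02 and 1.73 CPM in young mice 1 and 3 and 0.252 and 0.65 in aged mice (-1.98 ± 0.68, adjusted p = 0.439), with 10.2 in young mouse 2. Of 11 cell cycle genes tested without young mouse 2, 0 were called and the median was -0.56. At an unadjusted p below 0.05, 2 were lower, where 4.01% of all genes were. With all libraries 0 of 20 were called, 7 were lower and the median was -1.91. Of 27 DNA replication genes tested without young mouse 2, 4 were higher at that threshold, where 4.31% of all genes were, 0 lower, and the median was 0.43. With all libraries 1 of 33 was higher and 0 lower, 16 had a positive fold change and the median was -0.00. No gene of that list was called in either fit. The licensing factor Mcm6 had 2.64 and 2.65 CPM in those young mice and 6.3 and 6.28 in aged mice (1.24 ± 0.31, 0.188), and Mcm2 7.42 and 6.91 against 11.5 and 14.9 (0.88 ± 0.23, 0.217). In the senescence list, Serpine2 was the 1 of 28 called in both fits (medians of -0.64 with all libraries and -0.01 without young mouse 2). The cell cycle inhibitor Cdkn1a was at 1.74, 2.8 and 1.44 CPM in young and 2.86 and 3.03 in aged mice (0.88 ± 0.20, 0.113), and Cdkn2a, the source of p16, had 0 counts in 4 libraries and 9 in young mouse 2.

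Messages of cytosolic ribosomal proteins had small positive fold changes. At an unadjusted p below 0.05 without young mouse 2, 21 of 45 were higher and 0 lower (15 and 0 with library totals), 44 had a positive fold change and the median was 0.25, while 0 passed the adjusted threshold. Over all genes 4.31% were higher and 4.01% lower in that fit. With all libraries the counts were 20 and 0 and the median 0.30. Rpl5 had 279, 234 and 289 CPM in young and 420.0 and 394 in aged mice (0.51 ± 0.13, adjusted p = 0.212), Rps6 312, 269.6 and 325 against 417 and 406 (0.36, 0.44). In both genes each aged mouse lay above every young one, but the share of all genes separated in this way is not given here. Rpl21, outside the list and with many processed copies in the genome, was called at 0.68 (0.0452). Among genes for folding in the endoplasmic reticulum, 7 of 32 were lower and 0 higher at the unadjusted threshold without young mouse 2 (4 and 0 with library totals). Over all genes 4.01% were lower and 4.31% higher. Of the 32, 8 had a positive fold change and the median was -0.11. With all libraries 3 were lower and 0 higher, 18 had a positive fold change and the median was 0.10, so the sign of the median turned with that mouse. None of the 32 was called in either fit. Pdia3, a disulfide isomerase, had 89.9 and 92 CPM in young mice 1 and 3 and 68.7 and 64.7 in aged mice (-0.46 ± 0.11, 0.127), and the central chaperone Hspa5 403 and 448 against 349 and 314 (-0.37 ± 0.12, 0.408). Of 30 genes of the integrated stress response, a brake on translation with a program of amino acid genes, 0 were called with all libraries (median 0.21), and without young mouse 2 (median 0.01) 2 rose (Psat1 of serine synthesis at 0.76 ± 0.13, and Fgf21) and 1 fell (the tryptophanyl-tRNA synthetase Wars at -0.84 ± 0.14). Of 24 clock genes, 0 were called with all libraries (median 0.06) and 1 fell without young mouse 2 (median -0.08). That was Dbp, an output factor of the clock, at 128, 77.5 and 118 CPM in young and 79.6 and 84.4 in aged mice (-0.60 ± 0.12, 0.0425), where the range of young mice including mouse 2 overlapped the aged one. The hour of dissection is not given in the labels.

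The caerulein-treated mice, whose libraries entered the fits above through the estimate of the spread, gave the same age comparison in other animals. Among the 35 genes higher in untreated aged mice without young mouse 2, 25 (71.4%) were also called higher in aged caerulein mice in the same fit, where 7.85% of all genes were called higher; they were 2.35% of the 1065 genes higher there. Of the 20 lower genes, 8 (40%) were called lower again, where 6.31% of all genes were, and they were 0.935% of 856. With all libraries the shares were 6 of 8 and 1 of 5 (2.46% and 1.27% of all genes called). Both sets of calls use one estimate of the spread between libraries, but share no mouse.

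Fold changes after caerulein are given here from the fit without young mouse 2. 1810007D17Rik was at 0.784, 0.751 and 0.988 CPM in young and 54.8, 49.3 and 42.9 in aged caerulein mice (5.85 ± 0.16). Bglap3 was at 14.7, 8.46 and 8.06 against 94.7, 57.8 and 75.5 (2.84 ± 0.23). Ugt2b34 was at 10.5, 12.4 and 13.6 against 1.57, 0.536 and 0.944 CPM (-3.55 ± 0.25) and Gfra1 at 1.96, 2.05 and 1.3 against 0.229, 0.244 and 0.0555 (-3.26 ± 0.43). The immunoglobulin sum was 0.831 to 0.957 CPM in the 3 young caerulein mice and 56.2, 103 and 75.1 in the aged ones. Runx1 was at 2.35, 4.19 and 2.65 against 13.8, 19.1 and 17.9 CPM, and H2-Aa at 4.53, 4.07 and 3.64 against 10.6, 12 and 15. These 7 measures moved the same way with age as untreated without young mouse 2, but not every list described above did. In that fit the MHC class II median was 1.52 after caerulein (untreated 1.00) and that of fatty acid oxidation -0.40 (-0.33). The medians of endoplasmic reticulum folding (0.35, untreated -0.11), fatty acid synthesis (-0.13, 0.40) and cholesterol synthesis (-0.01, 0.37) changed sign. Of 45 ribosomal protein genes, 1 was higher at an unadjusted p below 0.05, against 21 untreated.

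The age difference itself differed between treatments in other genes. Single-gene fold changes and differences in this paragraph are from the fit without young mouse 2, unless stated. Over all genes the test of that difference called 2 genes with all libraries (0.0142%; 0.00709% in each direction) and 311 without young mouse 2 (2.29%; 1.48% higher and 0.811% lower), of which 16 were among the 55. Reg3b was at 178, 142 and 64.1 CPM in young and 53.4, 28.4 and 23 in aged caerulein mice, a smaller age difference (-1.90 ± 0.48) than in untreated mice, and the difference between them was 3.83 ± 0.78 (adjusted p = 0.0243). For Reg2 it was 3.39 ± 0.82 (0.0498) and for Reg3a 3.58 ± 0.98, which missed the threshold (0.0779). Cpt1a was at 24.9, 28 and 26.8 against 32.3, 35.6 and 37 CPM and was called higher with age after caerulein (0.37 ± 0.09, adjusted p = 0.0181), opposite to untreated mice, the difference being 1.16 ± 0.15 (0.00382). Lpin3, also chosen after its values were seen, a phosphatidate phosphatase of lipid synthesis, did the same (-0.95 untreated, 0.55 after caerulein, difference 1.49 ± 0.21, 0.00413). With all libraries none of those 16 differences was called (Cpt1a, adjusted p = 0.0598), nor was Cpt1a after caerulein (0.40, 0.0813). Cobl rose with age in both, by less after caerulein (2.86 ± 0.12, difference -0.92 ± 0.21, 0.0372), with 16, 15.1 and 18.8 CPM in young and 117, 129 and 121 in aged caerulein mice. The test of the difference shares its untreated libraries with the age comparison above.

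**Figure D5:**
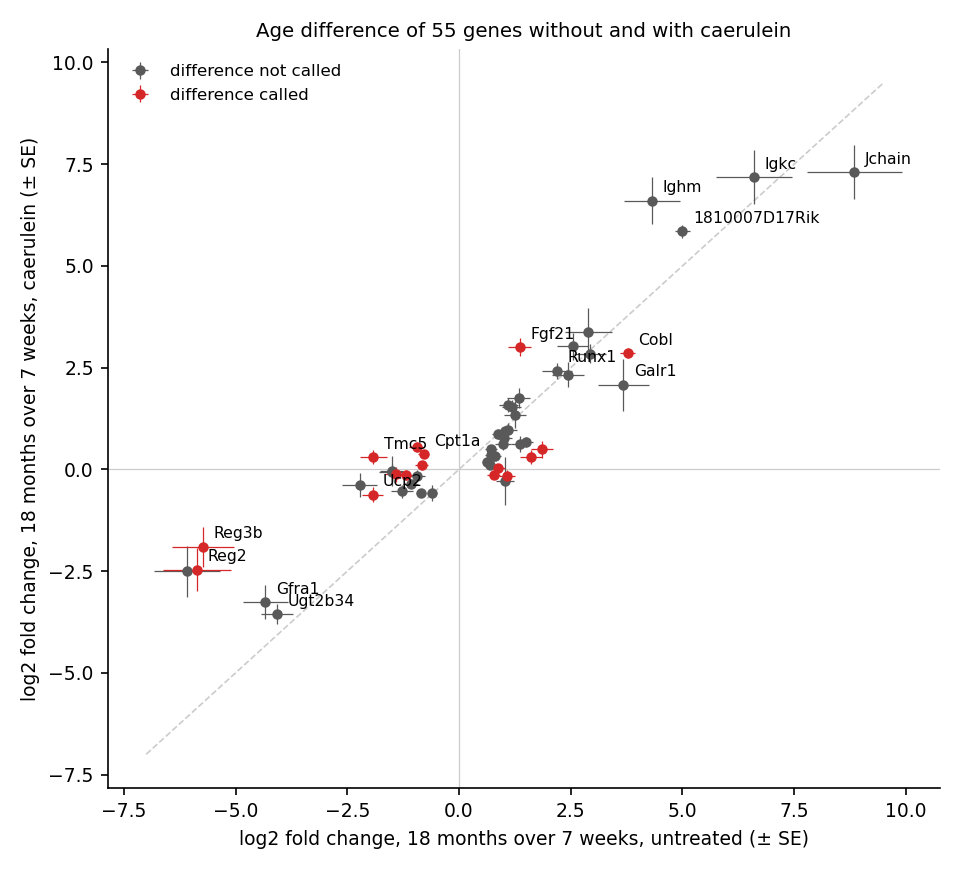
Log2 fold change, aged over young, of the 55 genes called without young mouse 2, in untreated (x axis) and caerulein-treated mice (y axis), each ± SE, with the dashed line marking equal change. Points of the 16 genes whose difference was called are red, among them Reg3b and Reg2, which lie above the line, and Cobl, which lies below it.

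The authors' deposited table for the same comparison lists 22114 genes, 48 of them at an adjusted p below 0.05, 22 higher and 26 lower. It includes all 13 genes called here with all libraries and 29 of the 55. The authors' deposited table has the noncoding RNA 1810007D17Rik at 5.04, Cobl at 3.91, Reg3b at -5.76 and Reg2 at -5.89 (log2). A further 19 genes are called in the authors' deposited table alone, among them Cd3e at -19.93 and Lef1 at -20.72, genes with 0 counts in the 4 untreated libraries other than young mouse 2.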

How the data were processed

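Whole-pancreas RNA of 11 mice was sequenced after poly(A) capture as paired reads, and the deposited table gives raw read counts for 54532 genes. Per the submitters' processing notes, HISAT2 2.0.5 and featureCounts 1.5.0-p3 were used with mm10. The annotation release and strandedness were not stated in those notes or in the labels. The authors' deposited comparison table holds log2 fold changes and p-values, used only where named, and the FPKM table was not used. Samples were grouped by their labels, and 0 sample columns were left unmapped. Total counts ran from 14223190 to 26537091.

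Counts were filtered with filterByExpr, scaled by TMM and fitted with edgeR 4.0.16 (quasi-likelihood test, R 4.3.3) as 4 groups over 11 libraries, and again over 10 without young untreated mouse 2. Benjamini-Hochberg adjustment ran over all genes tested, with a call at 0.05. The standard error is the log2 fold change divided by the square root of F. Single-gene levels are TMM-scaled CPM, and list sums are CPM of the library total. The enzyme share was compared by an exact permutation test. The fit was also run on counts simulated from the means and spread of the main fit, with known changes in genes of at least 2 CPM. With all libraries it called 40 of 100 2-fold and 86 of 100 4-fold changes, with 10 false calls. Without young untreated mouse 2 it called 74 and 96, with 8 false calls. A gene not called can therefore still differ by 2-fold. Alternatives were other filters, scalings, tests (DESeq2 1.42.0), sets of libraries and the mouse number as a block. Figures used matplotlib 3.10.9 and Python 3.11.15. Promoters are from RefSeq, where all 6 cluster genes with counts matched by symbol.

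The comparison, gene lists and fixed genes were chosen with earlier results of these data known. Genes could be named if they were among the 12 largest changes per direction called in both fits with groups apart and at least 2 CPM (no Gm, Rik or receptor segment names), the 5 largest at 100 CPM or more, the 5 of smallest p per direction called only without young mouse 2, up to 4 members of smallest p of a list described, or 1 of 32 fixed genes. Not every gene that the rule allows is printed. The fixed genes Amy2b, Gcg, Krt8, Col1a1, Igf2, H19, Gpnmb, C3, C4b, Lcn2, Ccl2, Ccl8, Nr1d1 and Igf1, none called in either fit, are left out. No gene lost its call without young mouse 2.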

Additional observations from a re-analysis of the deposited data

Results flagged for a closer look

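In the fit without young untreated mouse 2, the age difference after caerulein differed from the untreated one, by edgeR's test of the difference itself, in 16 of the 55 genes called with age. The same untreated libraries enter both the age call and this difference.

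In 9 genes that were lower in aged untreated mice, and in Fgf21, which was higher, the value (age difference after caerulein minus that without it, log2) was positive. It was 3.83 for Reg3b (adjusted p = 0.0243), 3.39 for Reg2 (0.0498), 1.04 for Reg3d (0.0224), 1.31 for Ucp2 (0.0319), 1.16 for Cpt1a (0.00382) and 1.29 for the neuropilin gene Nrp2 (0.0429). It was 2.21 for Tmc5 (0.00776), 1.49 for Lpin3 (0.00413), 0.936 for Wars (0.0224) and 1.65 for Fgf21 (0.0224). Fgf21 is the gene that moved the same way with age in both and by more after caerulein (1.36 untreated, 3.00 after caerulein).

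In the others the untreated increase was the larger value. The difference was -0.918 for Cobl (adjusted p = 0.0372), -1.37 for Serpine2 (0.0436), -1.25 for Fxyd1 (0.0171), -0.908 for Srebf1 (0.0248), -1.31 for Azgp1 (0.0398) and -0.835 for the adaptor gene Nck2 (0.0344). With all libraries none of the 16 had a called difference.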

How the results depend on the processing

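Of the 13 genes called with all libraries, 1810007D17Rik and Cobl were called in each of 20 alternatives; of the 55 called without young mouse 2, those and Rdh11, Gfra1, Ugt2b34 and Jchain were called in each of 9 (some of these were chosen after seeing the data). For the untreated comparison, 8 higher and 5 lower genes became 72 and 635 with no filter on low counts, 3 and 0 with library totals, 36 and 27 with DESeq2, 5 and 3 against a 1.5-fold minimum, and 2 and 0 when only the 5 untreated libraries were fitted. Leaving out single libraries gave 2 to 35 higher and 0 to 20 lower genes, with the upper ends without young mouse 2.

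For the caerulein comparison, 347 higher and 179 lower genes became 99 and 116 with library totals, 590 and 323 with DESeq2 and 53 and 28 at 1.5-fold; the lower genes were 307 with no filter and 306 with a stricter one. Leaving out single libraries gave 109 to 1065 and 60 to 856. The difference between treatments, 1 and 1 gene, became 547 and 127 with no filter, 31 and 24 with the stricter filter, 0 and 0 with library totals, 179 and 100 with DESeq2 and 0 and 0 at 1.5-fold, and 0 to 201 and 0 to 110 without single libraries.

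Without young mouse 2, 35 higher and 20 lower genes became 20 and 11 with library totals, the lower genes 36 with DESeq2 and 32 with untreated libraries alone, and, leaving out 1 more library, 5 to 12 (6 without aged mouse 3) and 3 to 13. There the caerulein higher genes were 560 with library totals, the difference 52 and 69 with library totals and 338 (higher) with DESeq2, and, leaving out 1 more library, 37 to 82 (61 and 64 between) and 7 to 29 (19 and 22 between). Leaving out single libraries, H2-Aa ranged from -2.75 to 1.11, H2-Eb1 from -2.74 to 1.18, Jchain from -3.36 to 8.85, Igkc from -4.03 to 6.61 and Ighm from -3.24 to 4.32, each highest value being the one without young mouse 2; Jchain had no counts in the young mice left, so its value depends on the constant added in the fit. The cause of the other moves was not tested.

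Deviations from the group mean in same-numbered young and aged mice correlated at 0.002 and -0.022 untreated and at -0.207, 0.104 and -0.046 after caerulein. Differently numbered caerulein mice gave values from -0.245 to 0.303. Untreated mice were not set against caerulein mice of the same number. With 2 or 3 mice a group, these values cannot decide whether the numbers pair the mice. With the mouse number as a replicate block, 3 genes were higher and 0 lower untreated and 111 lower after caerulein, and without young mouse 2 20 were higher and 12 lower untreated. The 2 or 3 mice a group limit the precision, and genes of few counts the most.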
